A study of Mus musculus with 28 samples.

Results

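The cerebellar neuron genes described here are 10 mouse genes that mark the main neurons of the cerebellum. Cbln1, Cbln3, Zic1, Zic2, Neurod1 and Fat2 are genes of granule cells, and Pcp2, Calb1, Car8 and Pvalb are genes of Purkinje cells or of inhibitory interneurons. They were chosen by symbol, and each symbol matched a single gene of the 55414 in the deposited tables. All 10 passed the filter on low counts and were among the 12423 genes tested.

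The cerebellum holds more neurons than the rest of the brain, most of them granule cells, whose parallel fibres synapse on Purkinje cells. Purkinje cells are the only output of the cerebellar cortex, and they are rich in calcium signalling proteins and calcium buffers. Several of the genes are also active elsewhere: Pvalb and Calb1 in interneurons and projection neurons of the forebrain, Neurod1 in the dentate gyrus, Cbln1 in the thalamus, and Zic1 in septum, thalamus and meninges. A whole-brain level therefore sums several sources.

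The study measured whole-brain RNA of 28 samples, 7 in each of 4 groups, by a 3′ tag protocol that gives a read near the polyadenylated end of a transcript. The naive, demyelination and remyelination groups were TNFR1ff mice, which carry a floxed TNFR1 gene on a C57BL/6 background. They were taken without cuprizone (coded CPZ0), at the peak of demyelination (CPZ5) and in remyelination (CPZ6+1), with no unit given for these codes. The fourth group, called knockout remyelination here, was mgTNFR1KO at the same remyelination stage, Cx3cr1-CreER.Tnfr1ff mice in which tamoxifen had removed TNFR1 from microglia. Cuprizone is a copper chelator that kills oligodendrocytes. Cx3cr1 is also active in other macrophages, so the Cre is not limited to microglia. Age and sex are not given in the labels, nor is whether the TNFR1ff mice had tamoxifen, and no naive knockout group was analysed here, so genotype and stage cannot be told apart where knockout libraries are set against naive ones. Nothing says that the 7 samples of a group came from separate animals, so p-values measure the spread between samples, which may be technical.

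Library totals lay between 1522913 and 3137254 expected counts. Tnfrsf1a, the targeted gene, was at 16.5 to 30.4 CPM in knockout remyelination and 15.6 to 28.8 CPM in remyelination libraries, and a 3′ tag outside the deleted part checks nothing about the deletion. The neuron markers Snap25 and Syt1 summed to between 3077 and 3792 CPM over all libraries. The lymphocyte markers Cd3e and Cd79a summed to at most 1.20 CPM. Summed markers of other cell types had different means between groups, and their part in the results was not tested. The 3 microglia markers summed to 271 ± 30.3 CPM in demyelination and 143 ± 14.9 CPM in naive libraries (SD, n = 7 each). In knockout remyelination, remyelination and naive libraries, red blood cell markers summed to 480.1 ± 139, 377 ± 72.0 and 240.4 ± 50.3 CPM, and choroid plexus markers to 1014 ± 136, 651 ± 174 and 693 ± 151 CPM. Knockout remyelination library 1 and naive library 1 stood apart in the share of ENSMUSG00000119584.1, the most abundant gene over all libraries together. It took 1.33% and 25.54% of their counts, against a median of 10.17% over all 28. Values are CPM, the reads of a gene scaled to a common library size after TMM normalisation. A floor of 3 counts equals 0.956 to 1.97 CPM, depending on the library.

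None of the 10 genes passed the quasi-likelihood test of edgeR (Benjamini-Hochberg adjusted p under 0.05 over all genes tested) in any of the 5 comparisons made. The nearest were Car8, Neurod1 and Calb1 in remyelination against naive brain, with adjusted p of 0.0597, 0.0889 and 0.105. The background was 2.0% of tested genes called in demyelination against naive, 0.628% in remyelination against naive and 0.386% in remyelination against demyelination. It was 0.0483% in knockout remyelination against remyelination and 3.24% in knockout remyelination against naive. The libraries of the 2 groups overlapped in 49 of 50 pairs of gene and comparison, the exception being Calb1 in remyelination against naive. Of all genes tested, 1.38% had no overlap in demyelination against naive, 0.628% in remyelination against naive, 0.322% in remyelination against demyelination, 0.129% in knockout remyelination against remyelination and 1.05% in knockout remyelination against naive. In whole-brain samples, fewer cells of a type and less RNA per cell cannot be told apart.

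**Figure D1:**
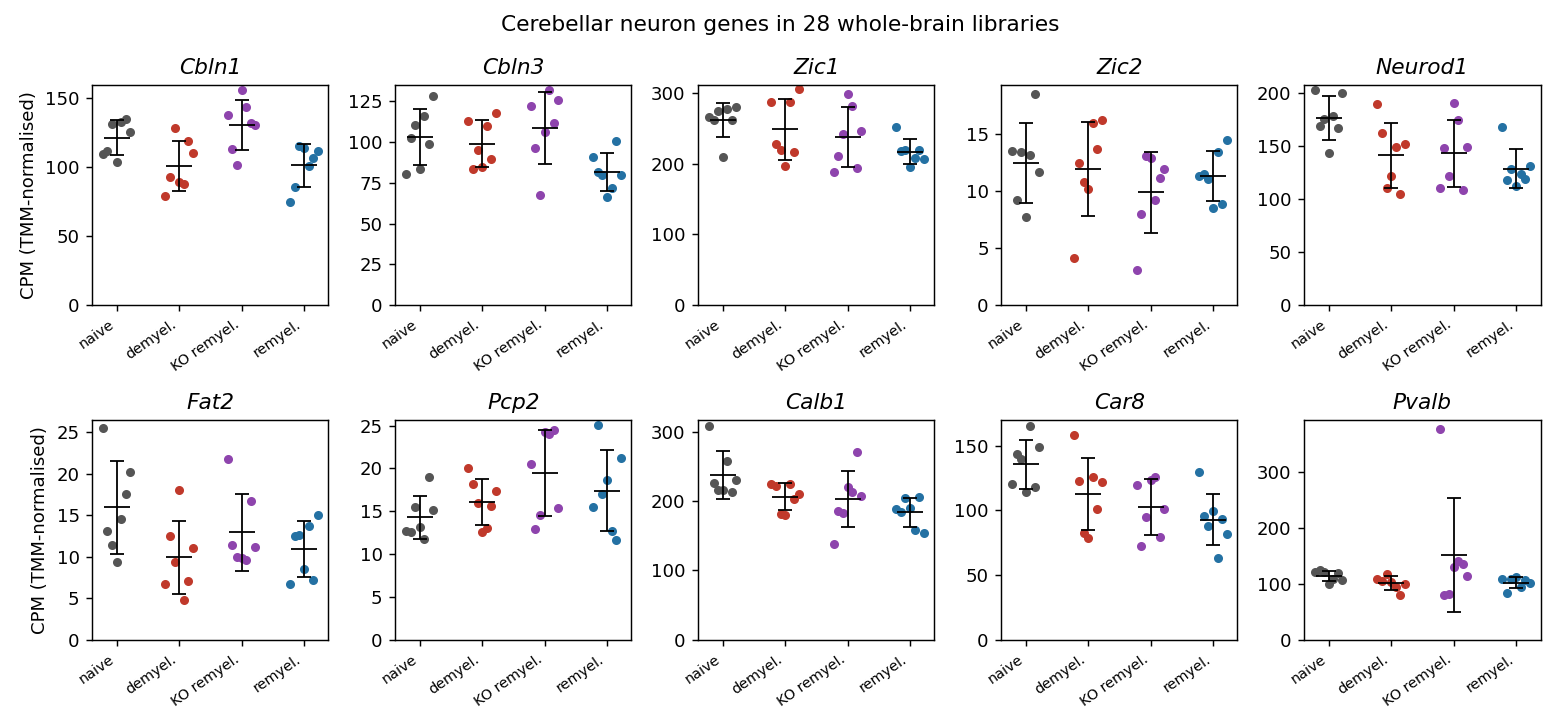
Level of each of the 10 genes in CPM (y axis, from 0) in the 28 libraries (points), by group (x axis, KO for knockout). Horizontal marks and bars are the mean and SD of 7 libraries. Groups overlap except for Calb1 in remyelination (153 to 206 CPM) and naive libraries (213 to 309 CPM), and a single knockout remyelination library holds 378 CPM of Pvalb.

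Of the granule cell ligands, Cbln1 (ENSMUSG00000031654.17) encodes cerebellin-1, which granule cells secrete and which binds neurexins on their parallel fibres and organises their synapses. Its lowest, median and highest levels were 104, 125 and 135 CPM in naive, 78.6, 92.3 and 128 CPM in demyelination, 101, 132 and 155 CPM in knockout remyelination, and 74.7, 106 and 115 CPM in remyelination libraries. Remyelination library 1 and demyelination library 1 were the lowest of their groups, and the 4 ranges overlapped. Means were 101 ± 18.3 CPM in demyelination and 121 ± 12.7 CPM in naive libraries (SD, n = 7 each), a log2 fold change of −0.27 with a 95% interval of −0.50 to −0.03 (edgeR adjusted p = 0.291). In remyelination the mean was 101 ± 15.5 CPM and the log2 fold change against naive was also −0.27 (95% interval −0.50 to −0.03, adjusted p = 0.369). Between remyelination and demyelination the fitted difference was under 0.001 in size on the log2 scale, with a 95% interval of −0.23 to 0.23.

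Cbln3 (ENSMUSG00000040380.15) encodes a relative of cerebellin-1 that is close to exclusive to cerebellar granule cells and that is secreted in complex with Cbln1. It ran from 80.3 to 128 CPM (median 102) in naive, 83.3 to 118 (median 94.98) in demyelination, 67.3 to 132 (median 112) in knockout remyelination and 66.1 to 101 (median 79.8) in remyelination libraries. The remyelination mean of 81.5 ± 11.5 CPM was set against 103 ± 17.2 CPM in naive libraries, a log2 fold change of −0.34 (95% interval −0.60 to −0.09, adjusted p = 0.266). At the peak of demyelination, by contrast, the log2 fold change from naive was −0.06 (95% interval −0.31 to 0.20, adjusted p = 0.891).

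The 2 cerebellins had nearly equal fold changes when knockout remyelination was set against remyelination. Cbln1 averaged 130.2 ± 18.3 CPM in knockout remyelination and 101 ± 15.5 CPM in remyelination, a log2 fold change of 0.37 (SE 0.115, 95% interval 0.14 to 0.60). Cbln3 averaged 109 ± 21.9 CPM in knockout remyelination and 81.5 ± 11.5 CPM in remyelination, a log2 fold change of 0.42 (SE 0.126, 95% interval 0.17 to 0.67). Their unadjusted p were 0.00242 and 0.00184, and over all genes tested the adjusted p were 0.535 and 0.512. Against naive libraries, the knockout remyelination log2 fold changes were 0.10 for Cbln1 and 0.08 for Cbln3 (adjusted p = 0.664 and 0.789).

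Among the transcription factors of granule cells, Zic1 (ENSMUSG00000032368.15) encodes a zinc finger protein of granule cell precursors that stays on in the adult. It was at 210, 267 and 281 CPM (lowest, median, highest) in naive, 198, 228 and 306 CPM in demyelination, 189, 243 and 299 CPM in knockout remyelination, and 196, 218 and 252 CPM in remyelination libraries. Naive libraries other than number 4 lay within 262 to 281 CPM, whereas the demyelination and knockout remyelination libraries were spread more widely, with a coefficient of variation (CV) of 17.4% and 17.9% against 9.22% in naive ones. Set against naive, remyelination gave a log2 fold change of −0.27 (95% interval −0.48 to −0.05, adjusted p = 0.31) and demyelination one of −0.07 (95% interval −0.29 to 0.14, adjusted p = 0.831).

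Neurod1 (ENSMUSG00000034701.10) encodes a basic helix-loop-helix factor needed for granule cells to differentiate and survive. Its levels were 143, 175 and 203 CPM in naive, 105, 149 and 189.6 CPM in demyelination, 109, 148 and 191 CPM in knockout remyelination, and 112, 124 and 168 CPM in remyelination libraries, each as lowest, median and highest. In remyelination, 6 libraries lay at 112 to 131 CPM, below all 7 naive libraries, and library 1 at 168 CPM lay among them. The means were 129 ± 18.6 CPM in remyelination and 177 ± 20.4 CPM in naive libraries, a log2 fold change of −0.45 (SE 0.127, 95% interval −0.71 to −0.20, adjusted p = 0.0889). Leaving out remyelination library 1 gave −0.54 and an adjusted p of 0.0218. That was the only 1 of 28 libraries whose removal brought Neurod1 under 0.05. Over all 28 removals the log2 fold change ran from −0.54 to −0.42 and the adjusted p from 0.0218 to 0.201. At the peak of demyelination the mean was 141 ± 30.8 CPM, with a log2 fold change from naive of −0.32 (95% interval −0.57 to −0.06, adjusted p = 0.225).

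Zic1 and Neurod1 were the pair of genes that varied together most closely from library to library, as described further on, so the stretches upstream of their starts are shown. They are from RefSeq on build GRCm38.p6, which is not the build of the count tables, cut before the first annotated transcript start, 5′ to 3′ on the minus strand. Capitals mark the E-box, the letters CANNTG, which read the same on both strands and are the class of site that basic helix-loop-helix factors bind.
Zic1, chr9:91365811-91366018: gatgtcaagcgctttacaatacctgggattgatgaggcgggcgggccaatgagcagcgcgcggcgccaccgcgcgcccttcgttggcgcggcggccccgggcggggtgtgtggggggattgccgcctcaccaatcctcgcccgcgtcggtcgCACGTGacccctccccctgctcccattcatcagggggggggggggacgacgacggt
Neurod1, chr2:79456752-79456886: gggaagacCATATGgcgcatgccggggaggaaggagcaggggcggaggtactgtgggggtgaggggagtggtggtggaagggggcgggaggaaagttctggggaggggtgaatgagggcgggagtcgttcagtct
Each stretch holds 1 E-box, with different central letters. Of the 32851 promoter windows in the same table, 60.3% hold at least 1 within their first 208 bases and 45.6% within their first 135 bases, so the match is a description of these letters only. RefSeq windows were matched for 6 of the 10 genes.

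Zic2 (ENSMUSG00000061524.9) encodes a close relative of Zic1, and Fat2 (ENSMUSG00000055333.15) a giant cadherin of granule cell parallel fibres. Both had few counts. Zic2 lay between 3.02 and 18.5 CPM over the 28 libraries, and its CV of 19.1 to 36.0% within groups can be set beside a counting error of 19.6 to 21.8%. Its log2 fold changes ran from −0.32 to −0.06 in the 5 comparisons, with 95% intervals whose lower bounds lay between −0.84 and −0.57 and whose upper bounds lay between 0.20 and 0.46. Fat2 lay between 4.82 and 25.4 CPM. It averaged 9.92 ± 4.42 CPM in demyelination and 15.9 ± 5.57 CPM in naive libraries, a log2 fold change of −0.68 with a 95% interval of −1.21 to −0.14 (adjusted p = 0.214). In remyelination it averaged 10.9 ± 3.34 CPM, a log2 fold change from naive of −0.52 (95% interval −1.04 to 0.00, adjusted p = 0.48).

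Of the Purkinje cell genes, Car8 (ENSMUSG00000041261.10) encodes a catalytically inactive carbonic anhydrase relative that binds the IP3 receptor and lowers its affinity for IP3. It was the gene nearest to the threshold. Naive libraries held 114, 139.8 and 165 CPM (lowest, median, highest), demyelination libraries 78.4, 122 and 158 CPM, knockout remyelination libraries 72.8, 101 and 126 CPM, and remyelination libraries 63.3, 93.1 and 129 CPM. In remyelination, the 6 libraries other than number 1 were at most 99.8 CPM, below the lowest naive library. The means were 92.8 ± 20.03 CPM in remyelination and 136 ± 18.9 CPM in naive libraries, a log2 fold change of −0.55 (SE 0.144, 95% interval −0.84 to −0.26, adjusted p = 0.0597).

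That value lay close enough to the threshold for single libraries to move it across. Without remyelination library 1 the log2 fold change of Car8 was −0.66 and the adjusted p 0.0111. Leaving out demyelination library 1 or knockout remyelination library 1, which enter only through the shared spread, the scaling and the filter, gave adjusted p of 0.0443 and 0.0493. These were the only 3 of 28 libraries whose removal brought Car8 under 0.05. Over all 28 removals the log2 fold change ran from −0.66 to −0.47 and the adjusted p from 0.0111 to 0.164. The knockout remyelination mean of Car8 was 102 ± 21.5 CPM, with a log2 fold change from naive of −0.41 (95% interval −0.70 to −0.12, adjusted p = 0.107) and from remyelination of 0.14 (95% interval −0.15 to 0.44, adjusted p = 0.855). In demyelination the log2 fold change from naive was −0.27 (95% interval −0.56 to 0.02, adjusted p = 0.428).

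Calb1 (ENSMUSG00000028222.3) encodes calbindin, a calcium buffer abundant in Purkinje cells and also present in striatum, hippocampus and cortex. Levels were 213, 226 and 309 CPM in naive, 179.6, 209 and 225 CPM in demyelination, 138, 207 and 271 CPM in knockout remyelination, and 153, 188 and 206 CPM in remyelination libraries, each as lowest, median and highest. All 7 remyelination libraries were below the lowest naive one. The remyelination mean of 183 ± 20.5 CPM against 238 ± 34.6 CPM in naive libraries, a log2 fold change of −0.37, did not pass despite the gap between the groups (SE 0.108, 95% interval −0.59 to −0.16, adjusted p = 0.105). With a library left out, it ran from −0.40 to −0.30 and the adjusted p from 0.0514 to 0.269. The highest naive level was that of naive library 1, which stood apart as given above.

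Pcp2 (ENSMUSG00000004630.19) encodes a modulator of G protein signalling that in brain is almost specific to Purkinje cells, and it was the only member with a positive log2 fold change in both cuprizone stages of TNFR1ff mice against naive. It averaged 16.1 ± 2.69 CPM in demyelination, 17.4 ± 4.70 CPM in remyelination and 19.5 ± 5.04 CPM in knockout remyelination, against 14.3 ± 2.48 CPM in naive libraries. The log2 fold changes from naive were 0.17, 0.28 and 0.44, with 95% intervals of −0.22 to 0.57, −0.11 to 0.67 and 0.05 to 0.83 (adjusted p = 0.774, 0.634 and 0.204). At 16 to 74 counts per library, its counting error alone was 15.7 to 19.1%.

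Pvalb (ENSMUSG00000005716.17) encodes parvalbumin, the calcium buffer of fast-spiking interneurons and Purkinje cells. Its CV was 8.09 to 12.2% in 3 of the groups, with 100.2 to 126 CPM in naive, 79.3 to 118 CPM in demyelination and 84.5 to 113 CPM in remyelination libraries. In knockout remyelination, library 1 held 378 CPM (625 counts) and the other 6 held 80.7 to 141 CPM. With that library, knockout remyelination against remyelination gave a log2 fold change of 0.56 (95% interval 0.17 to 0.95, adjusted p = 0.535), and without it 0.16 (adjusted p = 0.722). Against naive, it was 0.39 with library 1 (95% interval 0.01 to 0.78, adjusted p = 0.254) and −0.0032 without it (adjusted p = 0.994). The same library had the lowest Zic1, Zic2 and Calb1 and the highest Fat2 of its group. The gene most abundant over all libraries together took 1.33% of this library's counts, against 10.2 to 17.12% in the other 6, and the part of this in the result was not tested.

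**Figure D2:**
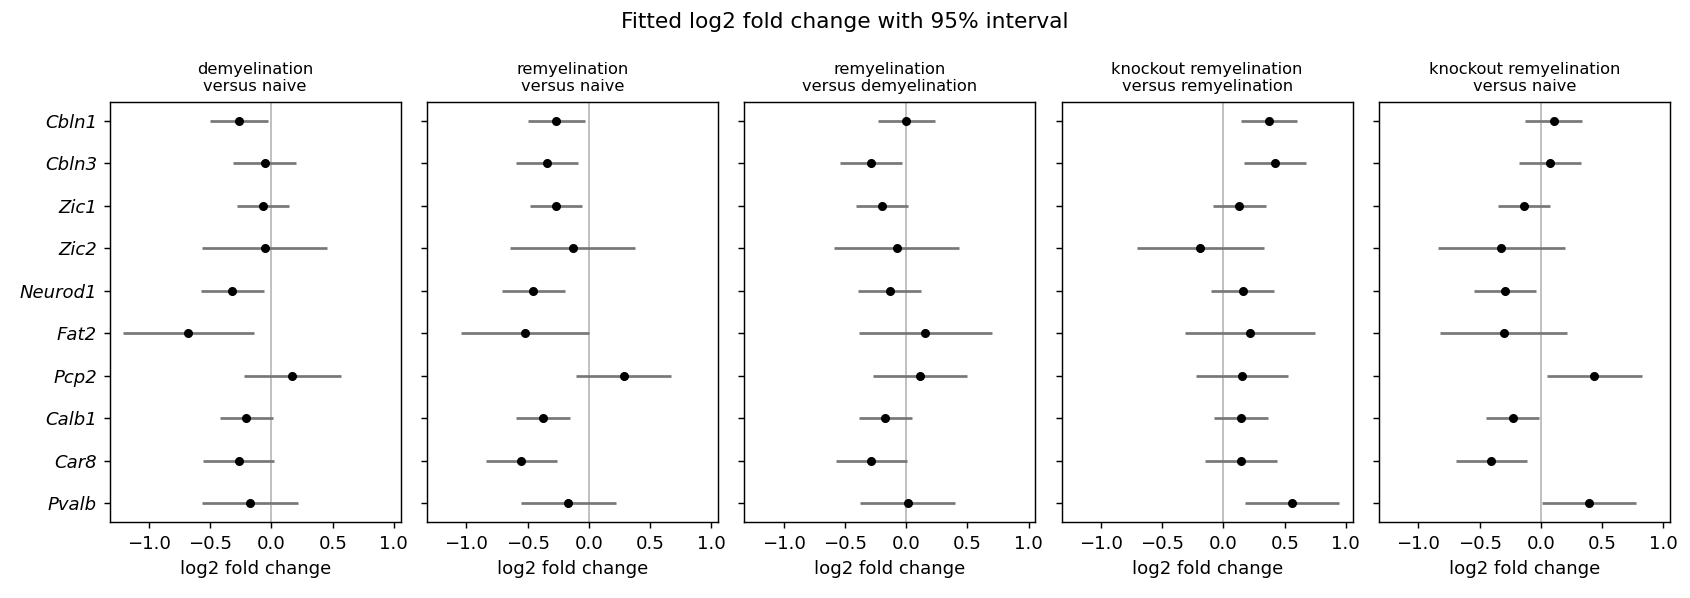
Fitted log2 fold change of each gene (points, first-named group over the second) with its 95% interval (lines), in the 5 comparisons, from the edgeR fit of all 28 libraries. In remyelination against naive, 9 of 10 points lie below 0, and in knockout remyelination against remyelination 9 of 10 lie above it.

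Across the 10 genes, no log2 fold change exceeded 0.68 in size. Their median was −0.19 in demyelination against naive and −0.31 in remyelination against naive, beside medians of −0.005 and 0.002 over all genes tested. It was −0.10 in remyelination against demyelination, 0.16 in knockout remyelination against remyelination and −0.18 in knockout remyelination against naive. These comparisons share libraries and are not independent of each other. By direction, 9 of 10 values were negative in each of the 2 comparisons of TNFR1ff cuprizone stages with naive. An unadjusted p under 0.05 was reached with a negative value by 3 genes in demyelination and 6 in remyelination against naive, where 6.47% and 5.41% of all genes did so, and by 1 gene (Cbln3) in remyelination against demyelination, where 3.43% did. In knockout remyelination against remyelination it was reached with a positive value by 3 genes (Cbln1, Cbln3 and Pvalb), against 3.64% of all genes. Of these, Pvalb rests on knockout remyelination library 1, as given above. In knockout remyelination against naive, 2 genes (Pcp2 and Pvalb) reached it with a positive value and 3 with a negative one, against 9.09% and 9.78% of all genes, and without that library Pvalb was at −0.0032. DESeq2 called Car8, Neurod1 and Calb1 in remyelination against naive (adjusted p = 0.0298, 0.045 and 0.0434) and 0 of the 10 genes in the other 4 comparisons. Of all genes with a DESeq2 adjusted p, it called 1.63% in remyelination against naive, 2.17% in demyelination against naive and 0.524% in remyelination against demyelination. In the knockout it called 0.0795% against remyelination and 4.01% against naive.

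Within groups, the genes did not vary as 1 block. Of the 45 pairs among the 10 genes, compared over 28 libraries as log2 CPM minus the group mean, 28 had a positive Pearson r, and the median r was 0.16. Zic1 and Neurod1 had r = 0.80 and Spearman rho = 0.77 (2-sided permutation within groups, p = 5e-05 and 0.00017, adjusted over 45 pairs 0.00225 and 0.00765). The r was 0.77 without the 2 libraries farthest out in Zic1 (knockout remyelination 4 and demyelination 4), and 0.82, 0.70, 0.88 and 0.86 within the naive, demyelination, knockout remyelination and remyelination groups. Zic1 and Car8 had r = 0.65 and rho = 0.68 (permutation p = 0.00097 and 0.00073, adjusted 0.0218 and 0.0164), and r = 0.59 without the same 2 libraries. These were the only 2 of 45 pairs with an adjusted p of r under 0.05, and with rho 5 pairs had one.

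Neurod1 with Car8 (r = 0.59, adjusted permutation p = 0.0516), Cbln3 with Car8 (r = 0.51, adjusted p = 0.0928) and Cbln3 with Zic1 (r = 0.44, adjusted p = 0.293) were next, all with adjusted p of rho under 0.05. Over all libraries, Car8, a Purkinje cell gene, had a positive r with 3 of the 6 granule cell genes and a negative r with the other 3 (Fat2 −0.39, Zic2 −0.25 and Cbln1 −0.13). Zic1 and Cbln1, both of granule cells, had r = −0.04 over all libraries. The sign for Cbln1 differed between groups. In naive, demyelination, knockout remyelination and remyelination libraries, its r with Zic1 was 0.68, −0.29, 0.34 and −0.78. Its r with Car8 was 0.48, −0.55, 0.66 and −0.54 in the same order. The 15 pairs within the granule cell genes had a median r of 0.09, the 6 pairs within the Purkinje cell and interneuron genes 0.25, and the 24 pairs across them 0.16. The lowest r, −0.55 between Zic2 and Pvalb, was −0.15 without the 2 libraries farthest out in Zic2.

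**Figure D3:**
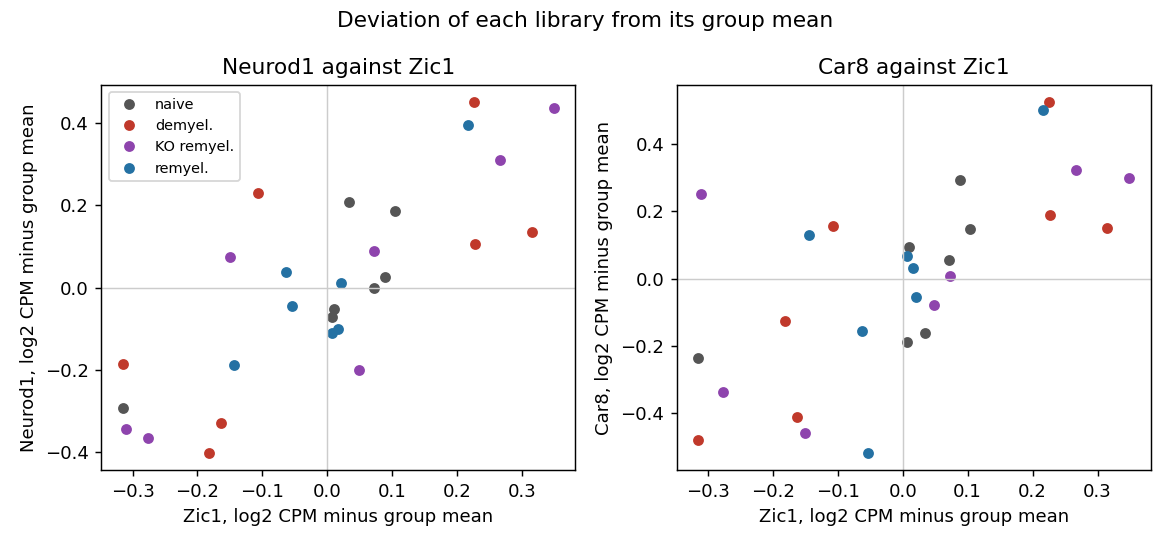
Deviation of each library from its group mean in log2 CPM, Neurod1 (left) and Car8 (right) on the y axis against Zic1 on the x axis, coloured by group (KO for knockout). Points of all 4 groups run from lower left to upper right, with r of 0.80 and 0.65 over 28 libraries.

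Library measures were set beside these values. Among 30 relations of the 10 genes with the mitochondrial share, the share of the most abundant gene and the library total, chosen after the data were seen, none had an adjusted permutation p under 0.05. The lowest were for Car8, with r = 0.54 and rho = 0.60 against the mitochondrial share of counts (permutation p = 0.00577 and 0.00251, adjusted 0.149 and 0.0614) and r = −0.45 and rho = −0.54 against the share of the most abundant gene (p = 0.0104 and 0.00409, adjusted 0.149 and 0.0614). Without the 2 libraries farthest out, knockout remyelination 1 and naive 1, these r were 0.52 and −0.49. Neurod1 moved more when the same 2 were left out: its r was 0.60 with the mitochondrial share, against 0.32 with all 28 libraries, and −0.63 with the share of the most abundant gene, against −0.16. The r of Calb1 with that last share was 0.14 without them, against 0.53 with all 28. Remyelination library 1 and demyelination library 1, which held the highest Car8 and Neurod1 of their groups, had mitochondrial shares of 14.2% and 14.12%, each the highest in its group. They also held the lowest Cbln1 of their groups. The part of the mitochondrial share in the result was not tested.

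Genes outside the list were ranked by likeness to the 6 granule cell genes, as the Pearson r over 28 libraries with the mean of their standardised deviations from the group means. Dner, which encodes a Notch-related membrane protein of Purkinje cells, was first at r = 0.72, followed by Usp9x at 0.65, Mcm5 at 0.63, Crtam at 0.62, Bmpr1b and Sfpq at 0.61, Zfp84 at 0.60, Tril and Rflnb at 0.59 and St3gal6 at 0.58. The members' own r with that mean, of which each is a part, was 0.71 for Zic1, 0.60 for Neurod1 and 0.14 for Fat2. The outside genes named are the highest of all those ranked, so their r and the members' r are not on a par. For the 4 Purkinje cell and interneuron genes, Cnpy1, Strn3, 5930430L01Rik, Fam199x and Gcc2 were at 0.69, Senp6 at 0.68, Gm43668 and Kcna4 at 0.67, and Mobp and Meis2 at 0.66. All of these values share libraries, depth and scaling with the genes they are compared with, and Gabra6, a GABA-A receptor subunit specific to granule cells, was only at 0.26 with the first set.

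Other cerebellar genes came from lists drawn up with earlier results of these data known. Of 15 further granule cell genes, 14 were tested, with a median log2 fold change of −0.14 in demyelination and −0.07 in remyelination against naive. In remyelination against naive, 6 of the 14 were positive and 8 negative. None passed the edgeR test in either. An unadjusted p under 0.05 was reached by 4 and 3 of 14, all with a negative value, where 6.47% and 5.41% of all genes tested reached it with a negative value. DESeq2 called 1 of them (Nfia) in each, with 14 and 12 of them given an adjusted p. Gabra6 averaged 16.3 ± 5.42 CPM in remyelination and 25.4 ± 3.82 CPM in naive libraries, a log2 fold change of −0.61 (SE 0.234, adjusted p = 0.284). In knockout remyelination it averaged 17.0 ± 4.49 CPM, a log2 fold change from naive of −0.57 (adjusted p = 0.168). Reln, the extracellular signal that granule cells secrete, rose in knockout remyelination against naive by 0.39 on the log2 scale (104 ± 12.9 against 79.3 ± 8.04 CPM, adjusted p = 0.0337).

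Of 19 further Purkinje cell genes, 16 were tested. Their median log2 fold change was 0.02 in demyelination and −0.02 in remyelination against naive, where 7 were positive and 9 negative, and 0.04 in knockout remyelination against naive, where 10 were positive and 6 negative. Foxp2, a transcription factor also found in thalamus and striatum, was the only one of them that edgeR called in the 5 comparisons. It fell by 0.56 in knockout remyelination against naive (37.7 ± 5.74 against 55.3 ± 8.77 CPM, SE 0.129, adjusted p = 0.0104) and its log2 fold change in remyelination against naive was −0.43 (adjusted p = 0.121). Ppp1r17, a phosphatase inhibitor of Purkinje cells, averaged 17.4 ± 4.65 CPM in remyelination and 27.0 ± 7.02 CPM in naive libraries, a log2 fold change of −0.63 (adjusted p = 0.192). In the opposite direction, Homer3, a scaffold of metabotropic glutamate receptors, averaged 24.5 ± 9.29 CPM in knockout remyelination, 21.05 ± 3.40 CPM in remyelination and 16.7 ± 2.58 CPM in naive libraries, with log2 fold changes from naive of 0.54 and 0.31 (adjusted p = 0.0833 and 0.567). Of the 7 partners and relatives of cerebellin, Nrxn3, a presynaptic neurexin, fell by 0.35 in demyelination against naive (422 ± 35.9 against 538 ± 84.6 CPM, adjusted p = 0.0493). Among 6 genes of Bergmann glia, the radial astrocytes around Purkinje cells, 3 values were positive and 3 negative in demyelination against naive. There, 5 of the 6 had an unadjusted edgeR p under 0.05 (2 higher and 3 lower), beside 13.3% of all genes tested. Hopx fell by 0.69 (21.3 ± 4.94 against 34.5 ± 4.66 CPM, adjusted p = 0.0317), and Slc1a3, a glutamate transporter, was at 0.27 (adjusted p = 0.172). In remyelination against naive, Fabp7 was at −0.78 and Npy at 0.56 on the log2 scale (edgeR adjusted p = 0.0894 and 0.105), and DESeq2 called both (adjusted p = 0.0482 and 0.0493).

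Markers of neighbouring regions were measured beside these genes. Hox genes, which mark the medulla and spinal cord, separated libraries within groups: the 11 listed summed to 43 to 80 counts in naive libraries 2, 5 and 6 and 46 to 65 counts in demyelination libraries 5 to 7. They summed to at most 25 counts in every other library. Over groups the summed Hox level was 0.558 to 9.79 CPM in knockout remyelination, 0 to 7.00 CPM in remyelination, 1.88 to 25.7 CPM in demyelination and 0 to 38.8 CPM in naive libraries. Of 19 hindbrain and medulla genes, 6 were tested, all 6 with negative values in remyelination against naive. Hoxa5 had 7 counts in all 7 remyelination libraries together, against 72 in naive ones (edgeR adjusted p = 0.0418). It had 10 counts in knockout remyelination libraries together, against the same 72 (adjusted p = 0.0407). So few counts cannot carry a gene past the filter (minimum count 10), so Hoxa5 was tested because of its level in the other groups. These adjusted p therefore cannot be read as support for a fall. The mean CPM of Hoxa5 was under the floor of 3 counts per library in both remyelination groups, so no fold change is given. DESeq2 gave no adjusted p in remyelination against naive, and 0.131 in knockout remyelination against naive. Slc6a5, the glycine transporter of inhibitory hindbrain neurons, was at −1.45 on the log2 scale in remyelination against naive (edgeR adjusted p = 0.34). In knockout remyelination against naive it was at −0.66 (adjusted p = 0.557). Slc6a5 ran from 0.55 to 5.7 CPM in remyelination and from 0.51 to 18 CPM in naive libraries. In both groups its lowest library was under the floor of 3 counts.

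**Figure D4:**
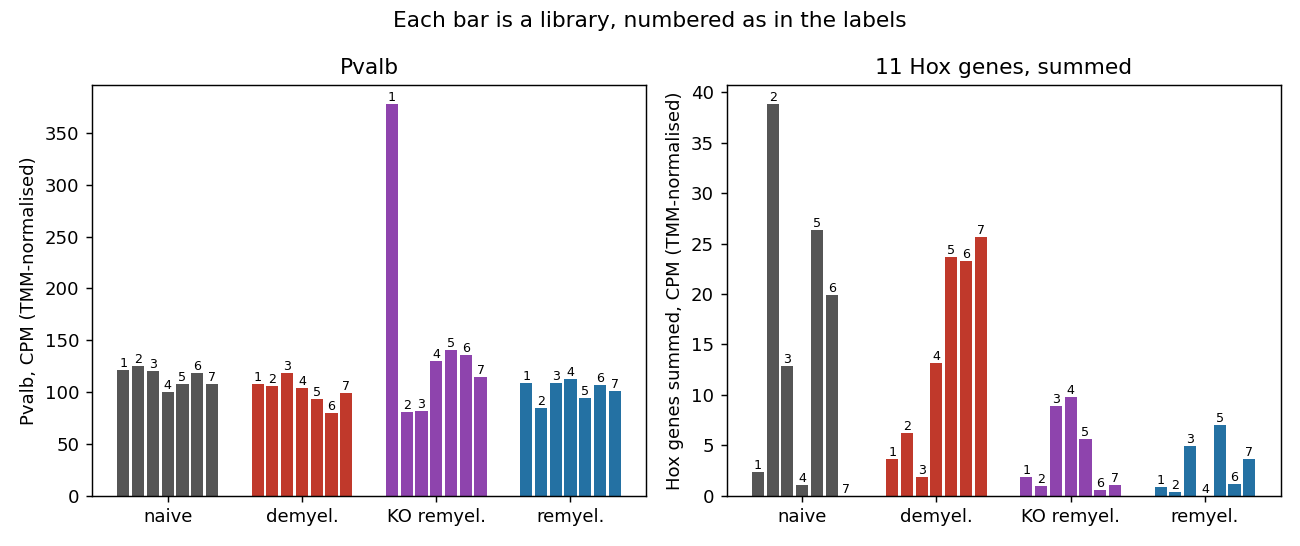
Pvalb (left) and the sum of 11 Hox genes (right) in CPM, with a bar for each library, numbered as in the labels and grouped (KO for knockout). Pvalb stands out in knockout remyelination library 1 at 378 CPM, while Hox counts are spread over naive and demyelination libraries and stay under 10 CPM in both remyelination groups.

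Within the naive group, library 7, with 0 Hox counts, held the highest Zic1 and Cbln3 of its group at 281 and 128 CPM. Library 4, with 2 Hox counts, held the lowest level of 7 of the 10 genes. The highest Neurod1, Fat2 and Calb1 were in library 1, with 3 Hox counts. The other genes were highest in libraries with more Hox counts. These were Cbln1, Zic2 and Pcp2 in library 6 (43 counts), Car8 in library 5 (56 counts) and Pvalb in library 2 (80 counts). Of 8 thalamus genes, 4 values were positive and 4 negative in remyelination against naive, with a median log2 fold change of −0.12. Against naive, 2 were positive and 6 negative in demyelination (median −0.24), and 1 was positive and 7 negative in knockout remyelination (median −0.21). Rora fell in remyelination against naive by 0.42 (210 ± 30.4 against 281 ± 31.0 CPM, adjusted p = 0.0198). Rora, also a gene of Purkinje cells, and Slc17a6 fell by 0.38 and 0.44 in knockout remyelination against naive (adjusted p = 0.023 and 0.00725), and Ntng1 by 0.36 in demyelination against naive (adjusted p = 0.0257). No striatum gene of 7, cortex and hippocampus gene of 10, olfactory bulb gene of 5 or hypothalamus gene of 4 passed the edgeR test in any of the 5 comparisons, nor did DESeq2 call any of their 34, 49, 22 and 18 values with an adjusted p. An unadjusted edgeR p under 0.05 was found for 5 of 35 striatum, 6 of 50 cortex and hippocampus, 2 of 25 olfactory bulb and 1 of 20 hypothalamus values, where 6.65 to 18.9% of all genes had one, depending on the comparison. For the thalamus genes it was 9 of 40 values, and for the Bergmann glia genes 14 of 30. Whether the part of the brain sampled differed between libraries was not tested.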

How the data were processed

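The authors deposited a table per library with expected counts, RSEM's estimates of reads per gene before any normalisation, per the file headers. Build GRCm39 and the tools STAR, RSEM, cutadapt, FastQC and edgeR are listed in the submitters' processing notes. No source used here gives their versions, the annotation release or the strand setting. Per the labels' protocols, libraries were made with the QuantSeq 3′ forward kit. Expected counts were rounded to whole numbers (96.59 to 97.69% per library were whole within 0.005). Symbols came from GENCODE M21 on GRCm38 by identifier and matched 52081 of 55414 genes. Counts were normalised by TMM, filtered with filterByExpr (minimum count 10) and tested by fitting 1 mean per group to the 28 libraries together (edgeR 4.0.16, R 4.3.3, quasi-likelihood test, Benjamini-Hochberg adjustment, called under 0.05). DESeq2 1.42.0 was an alternative. The common biological CV was 19.5%. Counting errors and floors cover counting only. Replicate libraries differed beyond sampling noise (lowest chi-square per degree of freedom 2.53). The code was tested on simulated data. Pair relations used log2 CPM with a prior count of 2, with 100000 permutations within groups. The members, the lists and the rule for naming genes (all members, list genes past the test or with the smallest p in remyelination against naive, and the 10 most alike) were chosen with earlier results of these data known. Reads of genes that overlap on opposite strands (Zic1 with Zic4, Pcp2 with Pet100, Cbln1 with Gm2694 in GENCODE M21) may be divided between them.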

Additional observations from a re-analysis of the deposited data

Results flagged for a closer look

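In 4 of 40 sets of 7 libraries (10 genes in 4 groups), the highest or lowest library was far from the rest by Dixon's test, and chance flags about 5% of such sets. Pvalb was at 378 CPM in knockout remyelination library 1, with the others at 80.7 to 141 CPM. Zic1 and Neurod1 were both high in remyelination library 1, at 252 and 168 CPM, with the others at 196 to 220.2 and 112 to 131 CPM. Zic1 was low in naive library 4, at 209.7 CPM, with the others at 262 to 281 CPM.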

How the results depend on the processing

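In demyelination against naive, remyelination against demyelination and both knockout comparisons, 0 of the 10 genes were called under each of 7 other settings and with any library left out. In remyelination against naive, 3 were called by DESeq2 and 2 each (Car8 and Neurod1) without a filter on low counts, with only the 2 groups compared and with a replicate block, and 0 to 2 with a library left out. Over 42 pairs of same-numbered libraries, r ran from −0.131 to 0.302 (median 0.035, against −0.005 for other pairs), so not every pair deviated together and the block was not taken as a pairing. As a hint of some link, 10 of 28 libraries were closest to their own number, a count that was not tested against chance. All genes called in that comparison were 78, but 147 with DESeq2, 122 without the filter, 147 with the block and 57 to 154 with a library left out. In knockout remyelination against remyelination, 6 were called, 11 with DESeq2, 28 without the filter and 4 to 8 with a library left out. In knockout remyelination against naive, 403 were called, 243 with library totals in place of TMM, 608 with the block, 644 without naive 1 and knockout 1, and 146 to 736 with a library left out. Library totals gave 192 higher and 59 lower calls in demyelination against naive, against 162 and 87. The pairs with an adjusted p of r under 0.05 were 5 with library totals and 3 under each of the other 2 settings. Near 0, signs turned: remyelination against demyelination gave −0.022 for Pvalb with library totals and 0.0021 for Cbln1 with the block. With a library left out, that comparison ran from −0.0497 to 0.067 for Cbln1, −0.22 to 0.019 for Zic2, −0.011 to 0.18 for Pcp2 and −0.041 to 0.053 for Pvalb. Demyelination against naive ran from −0.10 to 0.0084 for Cbln3 and −0.15 to 0.089 for Zic2, and knockout remyelination against naive from −0.0032 to 0.50 for Pvalb. Except where the alternative's own filter or samples say so, the cause was not tested.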
